A study of Mus musculus with 43 samples.

Results

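Whole-lung RNA of mice given house dust mite extract (HDM) for 19 weeks was compared between 2 antibody groups, 7 mice treated with dupilumab, an antibody against IL-4Rα, and 6 treated with itepekimab, an antibody against IL-33, each given with isotype antibody. These 13 of the 43 libraries of the series were chosen by their labels alone, and the question was which processes leaned to one blocked pathway or the other. The design text describes female mice aged 8 to 12 weeks on a hybrid 129S6/C57BL/6 background, which received HDM intranasally 3 times per week. It also says that mice for testing these antibodies carried human sequence in place of endogenous Il4, Il33 and the Il4ra ectodomain, so both groups are read as sharing these alleles. The labels do not give the week at which antibody was started. The other groups were saline (n = 5), HDM for 11 weeks (n = 6), HDM for 19 weeks (n = 7), HDM for 19 weeks with isotype antibody (n = 7) and with both antibodies (n = 5). Libraries are called mice here, but the labels only number them within a group, so p-values measure the spread between these libraries.

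IL-33 is held in the nucleus of epithelial and stromal cells and is released when they are damaged. It binds ST2, encoded by Il1rl1, on group 2 innate lymphoid cells (ILC2s), mast cells, T helper 2 cells and regulatory T cells, signals through MyD88 and NF-kB, and drives release of IL-5 and IL-13. IL-4Rα lies downstream of that release: it is the chain shared by the receptors for IL-4 and IL-13, it signals through STAT6, and in the lung its targets include goblet cell mucins, eotaxins and the lectins and chitinase-like proteins of alternatively activated macrophages.

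STAT6 binds palindromes of the form TTCNNNNGAA. Promoters of 4 type 2 genes of the macrophage and IL-4/IL-13 target lists, in which these letters occur upstream of the start, are shown because the results below turn on how differently such genes stood between the antibodies. Each is the 250 bases before the RefSeq start on the gene's own strand, 5′ to 3′, from GRCm38.p6, with the palindrome in capitals.
Fcer2a, chr8:3690862-3691111, minus strand: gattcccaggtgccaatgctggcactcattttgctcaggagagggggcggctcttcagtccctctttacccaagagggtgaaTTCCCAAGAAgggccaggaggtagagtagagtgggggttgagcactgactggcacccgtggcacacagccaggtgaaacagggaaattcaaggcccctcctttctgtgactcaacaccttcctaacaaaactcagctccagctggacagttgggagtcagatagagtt
Ccl17, chr8:94810203-94810452, plus strand: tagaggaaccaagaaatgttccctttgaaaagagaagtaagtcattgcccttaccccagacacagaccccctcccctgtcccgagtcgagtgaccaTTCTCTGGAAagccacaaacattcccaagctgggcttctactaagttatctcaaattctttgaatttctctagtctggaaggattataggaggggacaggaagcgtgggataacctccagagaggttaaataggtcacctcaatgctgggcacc
Retnla, chr16:48842359-48842608, plus strand: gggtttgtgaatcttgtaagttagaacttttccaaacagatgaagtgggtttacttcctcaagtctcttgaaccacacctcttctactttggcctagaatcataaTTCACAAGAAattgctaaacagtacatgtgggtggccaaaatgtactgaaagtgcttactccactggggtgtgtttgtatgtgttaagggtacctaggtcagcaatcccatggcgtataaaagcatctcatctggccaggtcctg
Cd209e, chr8:3854287-3854536, minus strand: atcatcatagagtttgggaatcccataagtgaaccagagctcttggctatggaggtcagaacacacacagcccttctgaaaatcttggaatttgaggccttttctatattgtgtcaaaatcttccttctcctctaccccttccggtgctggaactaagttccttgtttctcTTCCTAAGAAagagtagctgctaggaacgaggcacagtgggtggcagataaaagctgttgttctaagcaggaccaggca
One search covers both strands, since the form reads alike on each. The letters were present in 710 of 12530 tested genes with a promoter entry (5.67%), in 3 of 15 such genes of the IL-4/IL-13 target list and in 3 of 12 of the macrophage list. Ccl17 and Retnla are on both lists. The goblet cell and eosinophil lists had the letters in 0 of 6 genes each. Lists of other processes had shares as high, such as 3 of 11 prostaglandin and leukotriene genes and 2 of 9 ribosomal protein genes. A match is a description of the letters and not evidence of binding.

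No gene passed the test between the antibodies. With edgeR's quasi-likelihood test over 15979 genes, 0 were higher and 0 lower with anti-IL-4Rα at an adjusted p under 0.05 (0% called), and the lowest adjusted p was 0.240. At an unadjusted p under 0.05 there were 156 genes higher (0.976%) and 253 lower (1.58%), 409 together, against 799 from a flat distribution of p. Log2 fold changes are given throughout as anti-IL-4Rα minus anti-IL-33, so a positive value stands for a higher level with anti-IL-4Rα, and CPM is a gene's count scaled to library size with TMM factors. The median over all genes was 0.02, and 54.0% of genes had a positive log2 fold change. Every count of list members below is to be read beside that share and the shares at an unadjusted p above. Members and lists were chosen with earlier results of these data known, so such counts describe the lists and are not independent tests. For 10921 genes (68.3%) the 95% interval lay within 2-fold either way, so differences larger than that are outside the interval for these genes. For the rest the interval reached past 2-fold in at least one direction. DESeq2 called 1 gene higher and 3 lower.

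The libraries also differed within each group in ways the treatment labels do not give. Total counts ran from 14939095 to 21250794 with anti-IL-4Rα and from 14172772 to 24341248 with anti-IL-33. The GC slope, the change in a library's deviation from the mean log2 CPM of all libraries with each 10 percentage points of transcript GC content, was 0.25 ± 0.65 (SD, n = 7) and 0.26 ± 0.62 (SD, n = 6), with an exact 2-sided permutation p of 0.985 over 1716 splits (adjusted p 0.985 over 5 library measures). In 5 libraries the slope was above 0.75, namely anti-IL-4Rα replicates 2, 6 and 8 and anti-IL-33 replicates 4 and 5. A limma voom fit with a weight per library gave these 5 weights of 0.083 to 0.318 and the other 8 weights of 0.511 to 3.21, and it called 331 genes higher (2.07%) and 400 lower (2.5%). The edgeR fit without the 5 steep libraries called none, with 797 higher (4.85%) and 679 lower (4.13%) at an unadjusted p under 0.05. Where a gene below passed only in the weighted fit, that is said beside its value, and the share of the weights in those calls was not tested.

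**Figure D1:**
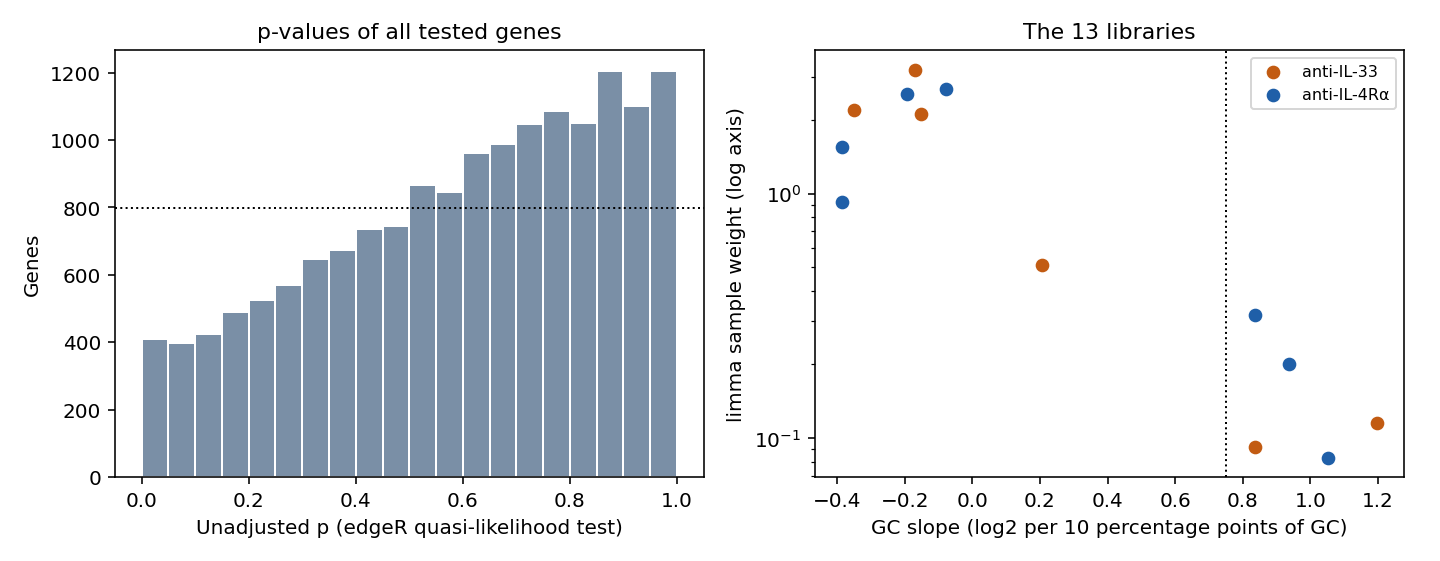
Left, number of genes (y axis) by unadjusted p of edgeR's quasi-likelihood test (x axis, 20 bins), with the dotted line at the number a flat distribution would give per bin; the lowest bin, p under 0.05, holds 409 genes against 799. Right, the weight limma gave each of the 13 libraries (y axis, log scale) by its GC slope (x axis), with the dotted line at 0.75; the 5 libraries to its right have weights of at most 0.318.

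Among the cytokines and receptors of the type 2 axis, 12 of 17 measured genes had a positive log2 fold change (median 0.21), 1 of them at an unadjusted p under 0.05, and none was lower at that p, where all genes gave 0.976% higher and 1.58% lower. Il13, which encodes the cytokine that acts through IL-4Rα on epithelium, had 0.417 to 2.83 CPM (median 1.48) in the anti-IL-33 mice and 0.9 to 3.3 CPM (median 2.58) in the anti-IL-4Rα mice, against a median of 1.59 CPM with isotype. The ranges overlapped, and the log2 fold change was 0.52 (SE 0.47, unadjusted p 0.274). Il1rl1, the IL-33 receptor ST2, ran over 1.77 to 25.3 CPM (median 15.6) and 2.94 to 35.6 CPM (median 22), with an isotype median of 25.4 CPM. The 3 mice below the saline median of 5.38 CPM, anti-IL-33 replicates 4 and 5 and anti-IL-4Rα replicate 2, were all among the 5 steep libraries. The co-receptor Il1rap had a log2 fold change of 0.21, Il5 of 0.34 and the decoy receptor Il13ra2 of 0.08, all with unadjusted p above 0.5. Il13ra2 was at 0.133 to 0.274 CPM in the 3 steep anti-IL-4Rα libraries and at 0.409 to 3.52 CPM in the other 4. With anti-IL-33 it was at 0.222 and 1.25 CPM in the 2 steep libraries and at 1.27 to 2.33 CPM in the rest. Il4ra and Il33 had log2 fold changes of -0.24 and 0.60; since parts of both genes are human in these mice and the build was mm10, what these counts measure is uncertain.

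The member at an unadjusted p under 0.05 was Areg, which encodes amphiregulin, an EGF receptor ligand made by ILC2s and regulatory T cells among others. Its level was 1.87 to 5.92 CPM (median 3.71) with anti-IL-33 and 1.87 to 11.2 CPM (median 6.24) with anti-IL-4Rα (log2 fold change 0.75, SE 0.31, edgeR adjusted p 1). Areg is also on the ILC2 list, in which 12 of 14 members were positive (median 0.34), with a range of medians of 0.29 to 0.58 when each library was left out. That list also holds Il13, Il5 and Il1rl1, described above, and Arg1, so it is not a count separate from those genes. The neuropeptide gene Calca stood at 0.74 and Il2ra, the high-affinity IL-2 receptor chain, at 0.75 on the log2 scale. Gata3 stood at 0.34, Il7r at 0.33, Ptgdr2 at 0.30 and Klrg1 at 0.22, none at an unadjusted p under 0.05. Icos stood at 0.04, and Rora and Il18r1 at -0.01 each. Il2ra passed in the weighted limma fit (log2 fold change 1.01, adjusted p 0.0165), and so did Arg1, described below. Il2ra was at 2.27 to 3.47 CPM in the 3 steep anti-IL-4Rα libraries and at 10.3 to 14.2 CPM in the other 4. In bulk lung, fewer cells of a type and less RNA per cell cannot be told apart, here and in every list that follows.

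**Figure D2:**
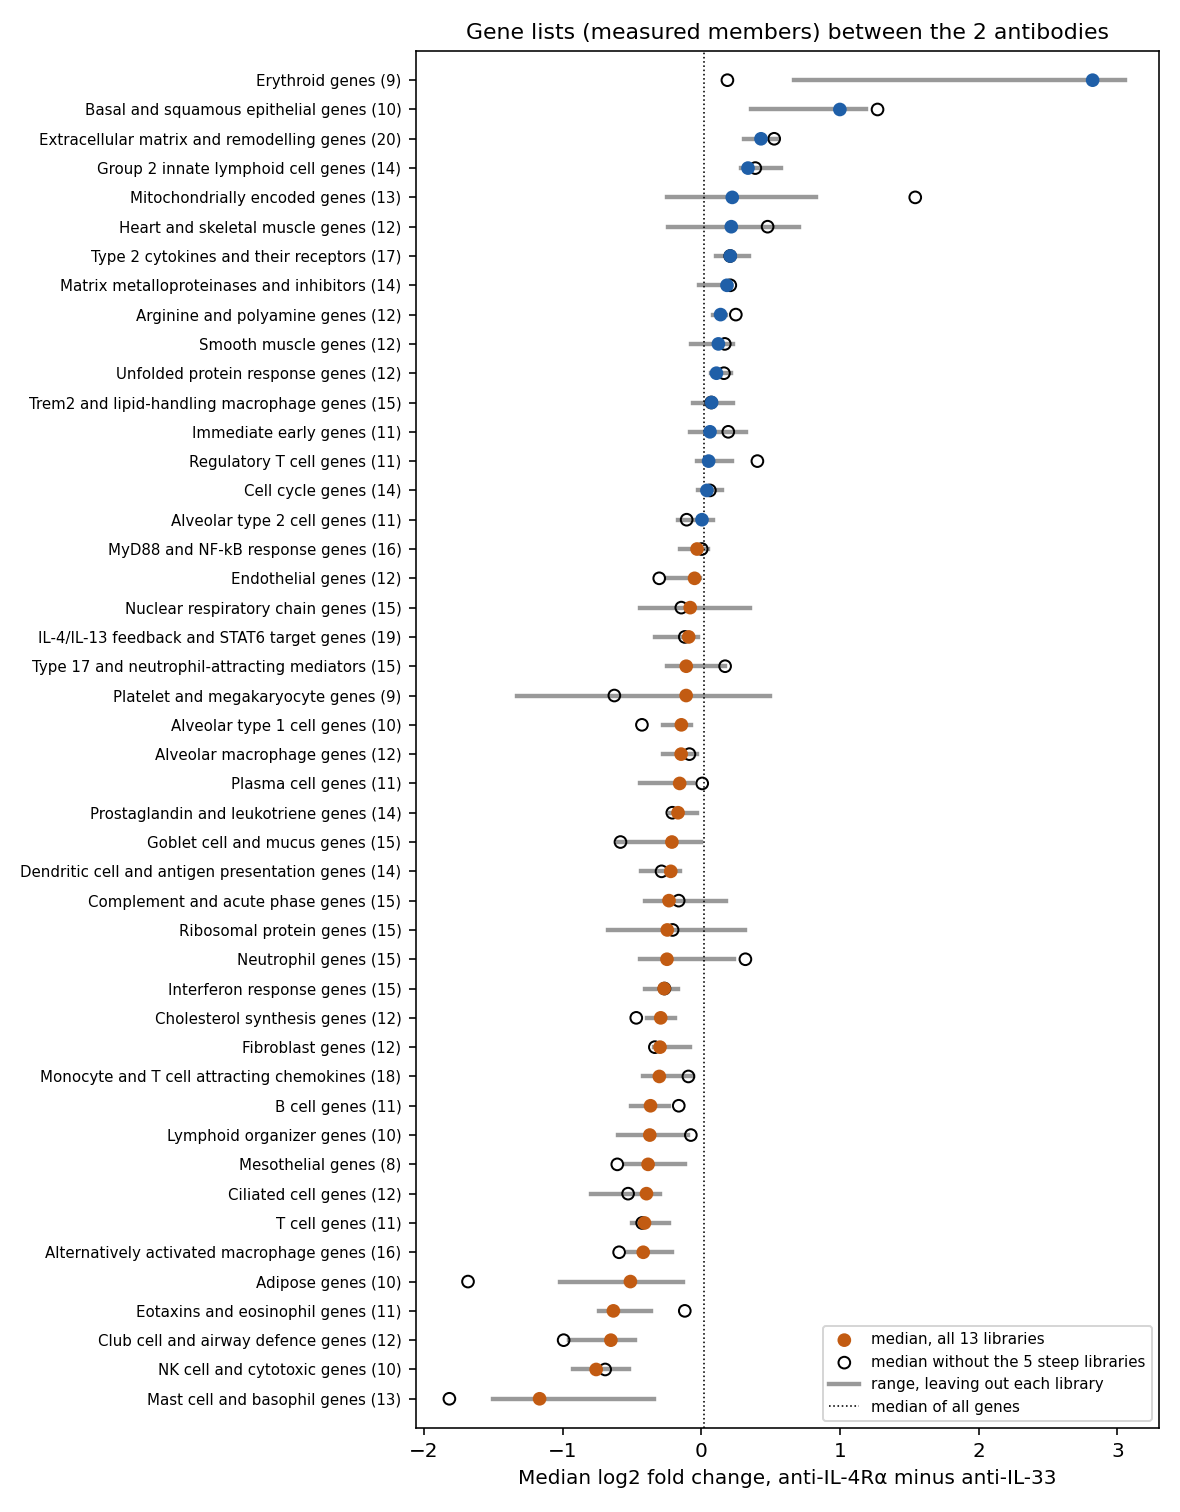
Median log2 fold change (x axis, anti-IL-4Rα minus anti-IL-33) of each gene list with at least 4 measured members (y axis, number measured in parentheses), with open circles for the fit without the 5 libraries of steep GC slope and grey bars for the range over fits that each leave out 1 library. Mast cell genes lie lowest at -1.17 with a bar reaching -0.34, matrix genes lie at 0.43 with a short bar, and erythroid genes at 2.82 have a bar down to 0.67.

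Targets of IL-4Rα did not share a direction. Of 19 measured IL-4/IL-13 feedback and STAT6 target genes, 8 had a positive log2 fold change (median -0.09), none was higher and 2 were lower at an unadjusted p under 0.05. Retnla, a resistin-like protein of alternatively activated macrophages whose promoter is shown above, had 1019 to 4739 CPM (median 2319) with anti-IL-33 and 1203 to 5396 CPM (median 2006) with anti-IL-4Rα. The isotype median was 2024 CPM and the saline median 47.4 CPM, so the single antibodies and isotype lay together far above saline, and the log2 fold change between the antibodies was 0.07 (95% interval -0.75 to 0.90). The chitinase-like Chil3 stood at -0.18 (95% interval -0.80 to 0.45) and Fcer2a, the low-affinity IgE receptor, at 0.13 (95% interval -0.80 to 1.06).

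Ccl17, a ligand of CCR4 that attracts T helper 2 cells, had 3.93 to 109 CPM (median 20.3) with anti-IL-33 and 8.1 to 45.2 CPM (median 9.85) with anti-IL-4Rα (log2 fold change -1.09, SE 0.46, unadjusted p 0.023). Its estimate ran from -1.65 to -0.17 as each library was left out, the last value being without anti-IL-33 replicate 4. Ccl22, the other CCR4 ligand, stood at -0.27. Arg1, the arginase of alternatively activated macrophages and ILC2s, stood the other way: 21.7 to 421 CPM (median 53.9) against 21.8 to 837 CPM (median 119.5), with a log2 fold change of 1.29 (SE 0.73, unadjusted p 0.0854). It passed in the weighted limma fit at 2.22 (adjusted p 0.017). Arg1 was at 21.8 to 89.4 CPM in the 3 steep anti-IL-4Rα libraries and at 119.5 to 837 CPM in the other 4.

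The alternatively activated macrophage list leaned to lower values with anti-IL-4Rα, with 3 of 16 members positive (median -0.42). At an unadjusted p under 0.05, 4 were lower and none higher, against 1.58% and 0.976% of all genes. Without anti-IL-33 replicate 4 the median was -0.21. The 4 were Ccl17 and 3 C-type lectin genes. Cd209e, whose promoter is shown above, had 0.74 to 11.1 CPM (median 2.59) and 0.366 to 1.98 CPM (median 1.59) (log2 fold change -1.54), its paralog Cd209d stood at -1.38, and Mgl2, a galactose-type lectin, had 20.7 to 104 CPM (median 56.7) and 21 to 45.1 CPM (median 33.4) (log2 fold change -0.86, SE 0.33). In all 3 the highest anti-IL-33 mouse was above every anti-IL-4Rα mouse while the lower mice overlapped. Cd209d and Mgl2 passed in the weighted limma fit (adjusted p 0.0346 and 0.0196). Cd209a, a paralog marking monocyte-derived dendritic cells, stood at -1.65 (unadjusted p 0.0131), and reads shared between these paralogs could be split in ways the sources used here do not state. Genes of lipid-handling Trem2 macrophages had a median of 0.07, with no member at an unadjusted p under 0.05. Within it Spp1, which encodes osteopontin, had 714 to 3039 CPM (median 1131) and 802 to 3386 CPM (median 3024) (log2 fold change 0.72, unadjusted p 0.136), and the macrophage elastase Mmp12 stood at 0.47.

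The list of eotaxins and eosinophil genes also leaned lower with anti-IL-4Rα, with 1 of 11 members positive (median -0.63). At an unadjusted p under 0.05, 2 were lower, as were 1.58% of all genes. Siglecf, Ear1 and Ear2 are also on a list of alveolar macrophage genes, where 2 of 12 were positive (median -0.15), so the list does not mark eosinophils alone. Ccr3, the eotaxin receptor of eosinophils, had 0.799 to 4.64 CPM (median 1.85) with anti-IL-33 and 0.366 to 1.71 CPM (median 0.634) with anti-IL-4Rα, beside an isotype median of 1.47 CPM. The ranges overlapped, and the log2 fold change was -1.47 (SE 0.38, unadjusted p 0.000412, edgeR adjusted p 0.769). Leaving out each library gave -1.82 to -1.08, and the weighted limma fit gave -1.56 (adjusted p 0.0245). Alox15, a 12/15-lipoxygenase induced by IL-4 and IL-13, stood at -1.27, but at -0.07 without anti-IL-33 replicate 2. Among the ligands of the eotaxin receptor, Ccl11 (eotaxin) had 16.7 to 58.6 CPM (median 42.6) and 8.83 to 64.4 CPM (median 27.8) (log2 fold change -0.44, unadjusted p 0.279), and Ccl24 stood at 0.54 (SE 0.86). Ccl11 was at 8.83 to 16.0 CPM in the 3 steep anti-IL-4Rα libraries and at 27.8 to 64.4 CPM in the other 4. Ccl24 was at 0.183 to 0.536 CPM and 1.64 to 26.4 CPM in the same libraries. With anti-IL-33, Ccl24 was at 0.296 and 0.729 CPM in the 2 steep libraries and at 1.22 to 13.4 CPM in the other 4. For Ccl11 these were 16.7 and 37.1 CPM against 36.9 to 58.6 CPM. The cause of this split was not tested. The granule protein gene Prg2 stood at -0.45 and Il5ra, another member, at -0.07 (SE 0.34). The list's median was -0.37 without anti-IL-33 replicate 2 and -0.12 without the 5 steep libraries.

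Mast cell and basophil genes had the lowest median of all lists, -1.17 over 13 members, of which 1 was positive. At an unadjusted p under 0.05, 4 were lower, as were 1.58% of all genes. All 4 encode granule proteases. The chymase gene Cma1 had 0.074 to 14.7 CPM (median 1.01) with anti-IL-33 and 0.275 to 0.934 CPM (median 0.55) with anti-IL-4Rα, Mcpt4 had 0.314 to 18.4 CPM (median 1.22) and 0.183 to 4 CPM (median 0.409), and their log2 fold changes were -2.44 and -2.35. A single mouse, anti-IL-33 replicate 7, held the highest values, and without it the list's median was -0.34, Cma1 stood at -0.44, Mcpt4 at -0.56 and Mcpt1 at 0.64, against -1.60 with it. The fit without the 5 steep libraries keeps that mouse. There the median was -1.82, with 6 of 13 lower at an unadjusted p under 0.05, as were 4.13% of all genes in that fit. The tryptase Tpsab1 ranged from -3.82 to -2.56 as each library was left out, at levels of at most 2.4 CPM.

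Among genes listed for goblet cells, the mucus-secreting cells of the airway, the lean lay in a few secreted products. Which cells made these RNAs was not resolved in bulk lung. Clca1, a secreted protein of mucus granules induced by IL-13, had 36.6 to 1750.4 CPM (median 526) with anti-IL-33 and 35.5 to 216 CPM (median 128) with anti-IL-4Rα, beside medians of 61.2 CPM with isotype and 0.165 CPM with saline. Some anti-IL-33 mice exceeded every anti-IL-4Rα mouse and others lay among them (log2 fold change -2.26, SE 0.86, unadjusted p 0.0125). The gel-forming mucin Muc5ac had 9.06 to 37.8 CPM (median 16.9) and 4.4 to 17.8 CPM (median 9.02) (log2 fold change -1.12, SE 0.44, unadjusted p 0.0148), and the lectin Itln1 stood at -1.01. Clca1 and Muc5ac passed in the weighted limma fit at -3.10 (adjusted p 0.0187) and -1.95 (adjusted p 0.00864). Muc5b, the mucin made in steady state, stood at -0.06 (95% interval -0.91 to 0.79). Over the list of 15, 3 were lower and none higher at an unadjusted p under 0.05, against 1.58% and 0.976% of all genes. Mean log2 CPM over the goblet list was 3.10 with isotype, 3.59 with anti-IL-4Rα and 3.98 with anti-IL-33, so both antibody means lay above isotype. Muc5ac ran from 4.01 to 19.6 CPM with isotype. In that list 5 were positive, and the median was -0.21. That median moved with single mice: it was -0.60 without anti-IL-4Rα replicate 2 and -6.1e-05 without anti-IL-33 replicate 5. Both mice are among the 5 steep libraries. Without all 5 the median was -0.58, with 4 of 15 lower at an unadjusted p under 0.05, as were 4.13% of all genes in that fit.

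**Figure D3:**
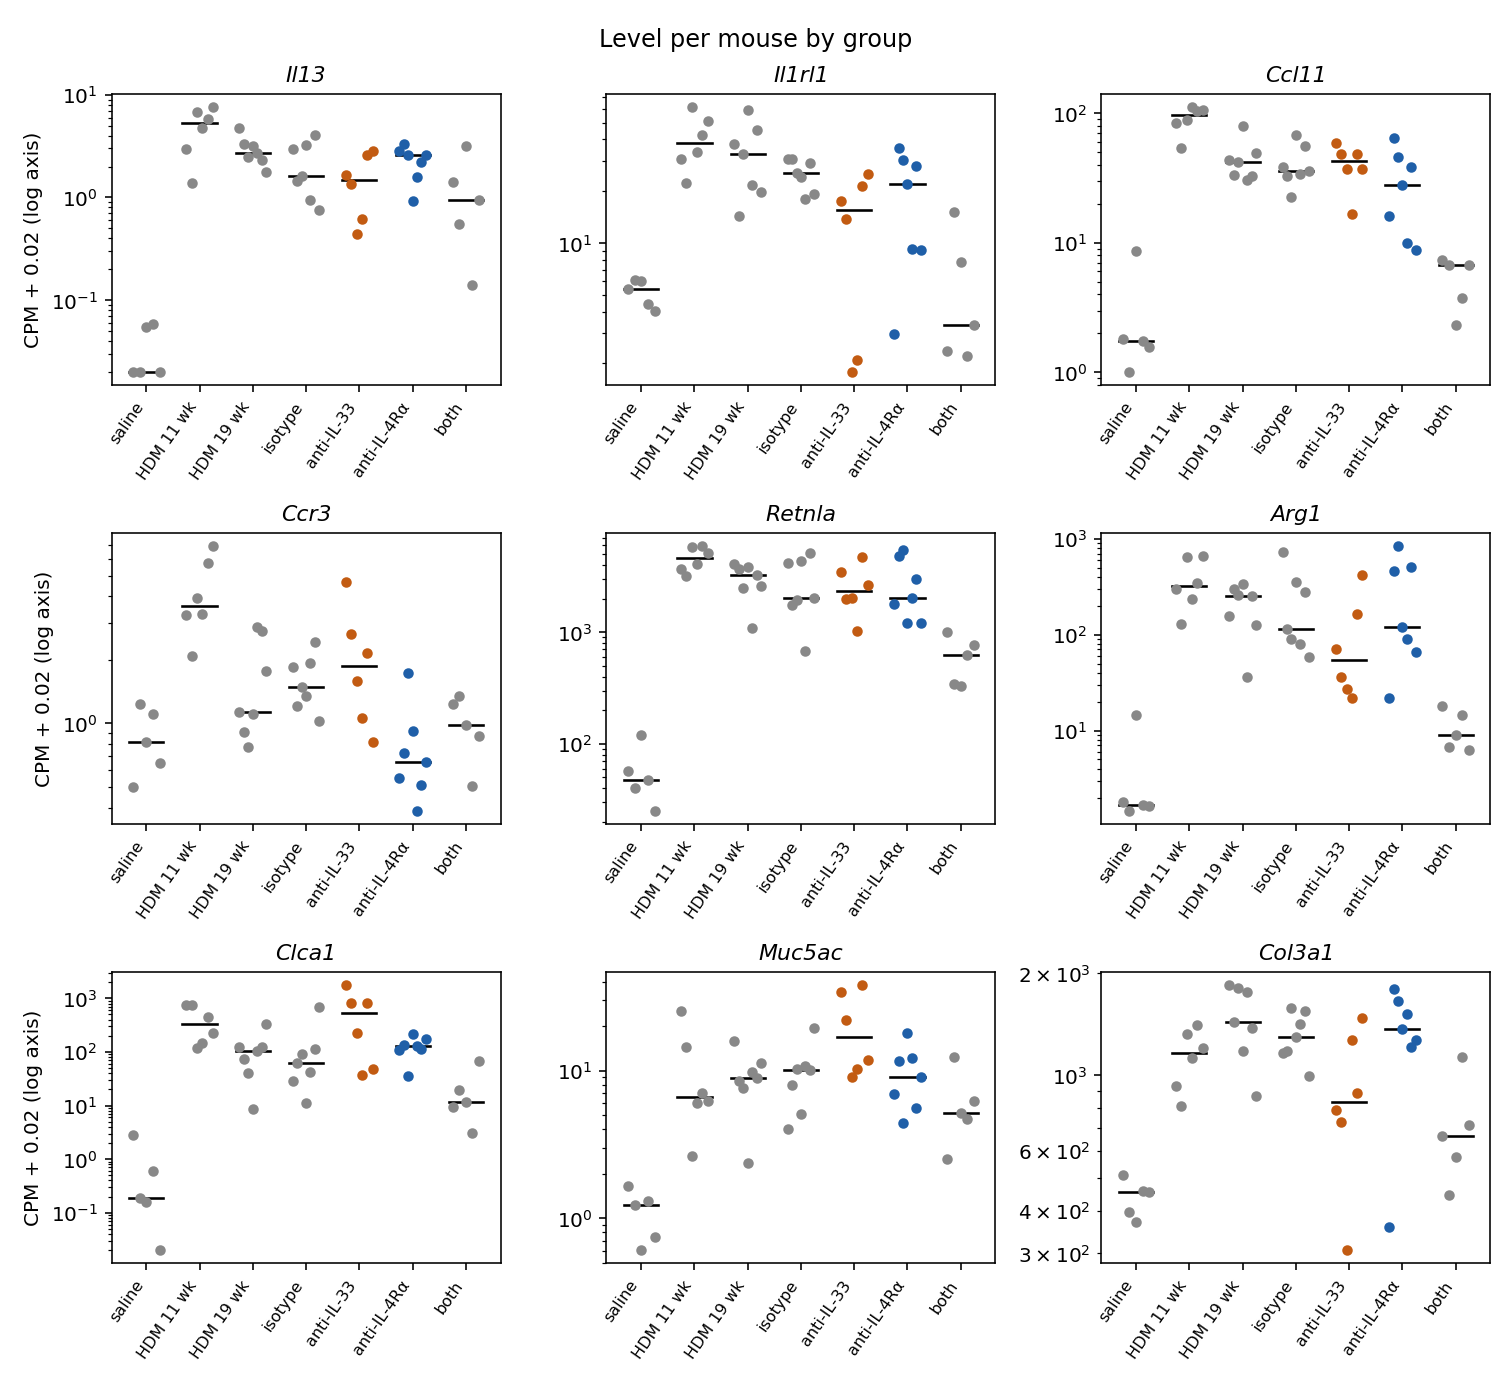
Level of 9 genes in each mouse (points, CPM + 0.02 on a log axis) by group (x axis), with a line at the group's median; anti-IL-33 is orange, anti-IL-4Rα blue and the other 5 groups grey. Orange and blue points overlap in all 9 panels; Clca1 and Muc5ac reach their highest values of these 2 groups in anti-IL-33 mice, and Ccr3 lies lowest in anti-IL-4Rα mice.

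Club and ciliated cell lists had the same direction, without a call in edgeR, while the basal and squamous list had the opposite one. All 12 club cell and airway defence genes were negative (median -0.65), 2 of them at an unadjusted p under 0.05, where 1.58% of all genes were lower. Mean log2 CPM over the club list was 5.88 with isotype, 6.41 with anti-IL-4Rα and 7.10 with anti-IL-33. Both antibody means thus lay above isotype, and these differences from isotype were not tested. Aldh1a1, a retinaldehyde dehydrogenase, had 63.8 to 453 CPM (median 165) with anti-IL-33 and 83 to 139 CPM (median 107) with anti-IL-4Rα (log2 fold change -0.92, SE 0.38), and the secretoglobin Scgb1a1 stood at -0.64. All 12 ciliated cell genes were negative too (median -0.39, 1 at an unadjusted p under 0.05), from Sntn at -1.06 to the cilium regulator Foxj1 at -0.05. Mean log2 CPM over the ciliated list was 3.44 with isotype, 3.59 with anti-IL-4Rα and 4.00 with anti-IL-33. The medians stayed negative in each of 26 alternatives for both lists, and the ciliated one was -0.80 without anti-IL-4Rα replicate 2. Without the 5 steep libraries the club median was -0.99 and the ciliated one -0.53. In that fit 4 club and 3 ciliated genes were lower at an unadjusted p under 0.05, as were 4.13% of all genes. In the weighted limma fit 6 club and 4 ciliated genes passed, all lower with anti-IL-4Rα, where 2.5% of all genes did, among them Cyp2f2, a club cell P450 enzyme (-1.73, adjusted p 0.00864). Of 10 basal and squamous epithelial genes, 9 were positive (median 0.999), and the 2 at an unadjusted p under 0.05 were the squamous keratins Krt4 and Krt13. Both keratins were highest in anti-IL-4Rα replicate 4, at 64 and 54.5 CPM, against a group median of 0.457 and 0 CPM, and Krt13 stood at 6.41 with that mouse, at -0.71 without it and at -0.67 in DESeq2. Sprr3 and Tgm3 were also highest in that mouse, at 5.89 and 5.72 CPM, against 0 CPM and at most 0.592 CPM with anti-IL-33. Without that mouse the list's median was 0.36. The list's median stayed positive in each of 26 alternatives. Levels were low, with a mean log2 CPM over the list of -0.85 with anti-IL-4Rα and -1.29 with anti-IL-33. No member passed in the weighted limma fit, and none was at an unadjusted p under 0.05 without the 5 steep libraries. The amount of airway in each piece of lung was not measured, and its part in these values was not tested. Alveolar type 2 cell genes had a median of 0.01, and all 11 had intervals within 2-fold. Sftpc, the surfactant gene that defines these cells and marks the tissue as lung, had 10662 to 30262 CPM (median 14829.6) and 7472 to 24953 CPM (median 15577).

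Matrix genes leaned to higher values with anti-IL-4Rα. Of 20 genes of extracellular matrix and remodelling, 18 were positive (median 0.43), 1 was higher and none lower at an unadjusted p under 0.05. Col3a1, a fibrillar collagen, had 306 to 1479 CPM (median 838) with anti-IL-33 and 359 to 1792 CPM (median 1368) with anti-IL-4Rα, beside medians of 1299 CPM with isotype and 453 CPM with saline (log2 fold change 0.52, SE 0.27, unadjusted p 0.0627). Col5a2, a minor fibrillar collagen, had 62.2 to 277 CPM (median 130.0) and 71.7 to 302 CPM (median 240.1) (log2 fold change 0.60, unadjusted p 0.0259). For Col3a1 each group had 1 mouse far below the rest, anti-IL-4Rα replicate 2 and anti-IL-33 replicate 4, both among the 5 steep libraries, and the other mice overlapped. The microfibril gene Fbn1 stood at 0.66 and Col1a1 at 0.43. In the weighted limma fit 11 of the 20 passed, all higher with anti-IL-4Rα, where 2.07% of all genes did, Col3a1 at 0.87 (adjusted p 0.00946) among them. Since the list was chosen with earlier results of these data known, that count is a description. The median of the matrix list stayed positive in each of 26 alternatives, from 0.31 to 0.55 as each library was left out. Without the 5 steep libraries it was 0.53, with 6 of 20 higher at an unadjusted p under 0.05, as were 4.85% of all genes in that fit.

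Lists of NK, T and B cells leaned lower with anti-IL-4Rα, while the regulatory T cell list did not. Of 10 NK cell and cytotoxic genes 1 was positive (median -0.76), with the granule gene Nkg7 at 3.57 to 20.3 CPM (median 7.91) and 2.25 to 8.41 CPM (median 4.3) (log2 fold change -1.08, unadjusted p 0.0229). Of 11 T cell genes 1 was positive (median -0.41, 1 lower at an unadjusted p under 0.05), with a median of -0.23 without anti-IL-33 replicate 5. Of 11 B cell genes 2 were positive (median -0.37), with none at that p and a median of -0.23 without the same mouse. Of 11 regulatory T cell genes 7 were positive (median 0.05), 1 of them, Areg, at that p and none lower. The regulatory T cell median ran from -0.03 to 0.22 as each library was left out, and without the 5 steep libraries it was 0.40, with 2 members higher at that p. Ifng, the type 1 cytokine, stood at -1.44 (unadjusted p 0.0235) at levels of at most 0.729 CPM. Ccr7, the receptor that guides dendritic cells and T cells to lymphoid tissue, had 7.44 to 16.9 CPM (median 11.3) and 4.4 to 11.8 CPM (median 6.14) (log2 fold change -0.81, SE 0.26, unadjusted p 0.00314), and passed in the weighted limma fit (adjusted p 0.0187). Plasma cell genes had a median of -0.16, which was -0.06 without anti-IL-33 replicate 5 and 0.01 without the 5 steep libraries, and Jchain, the joining chain of IgA and IgM, stood at -0.44.

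Genes of the MyD88 and NF-kB response, the arm that IL-33 itself engages, had a median of -0.03 with no member at an unadjusted p under 0.05, and 11 of 16 had intervals within 2-fold. Type 17 and neutrophil-attracting mediators had a median of -0.11, again with no member at that p, and the median was 0.17 both without anti-IL-33 replicate 4 and without the 5 steep libraries. The neutrophil attractant Cxcl5 stood at -0.87 (unadjusted p 0.0597) and Lcn2, an antimicrobial protein of epithelium and neutrophils, at 0.19. The neutrophil alarmin S100a8 had 32.2 to 686 CPM (median 61.7) and 39.6 to 286 CPM (median 96.1), and its log2 fold change of -0.56 became 0.95 without anti-IL-33 replicate 4, the highest mouse. The neutrophil list's median of -0.25 became 0.23 without that mouse. Cholesterol synthesis genes had a small lean, 1 of 12 positive (median -0.29) and none at an unadjusted p under 0.05, with intervals within 2-fold for 11. Of the 12, 7 passed in the weighted limma fit, all lower with anti-IL-4Rα, where 2.5% of all genes did, including squalene epoxidase Sqle at -0.70 (adjusted p 0.00946).

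Erythroid and skeletal muscle RNA was high in a few libraries. Erythroid genes had a median of 2.82 over 9 members, 5 of them higher at an unadjusted p under 0.05, as were 0.976% of all genes. Mean log2 CPM over the erythroid list was 4.10 with saline, 3.61 with anti-IL-4Rα, 3.22 with anti-IL-33 and 2.64 with isotype. Saline lungs thus held such RNA as well. The band 3 gene Slc4a1 was at 598 CPM in anti-IL-4Rα replicate 2 and at a median of 1.85 CPM in that group, against at most 14.5 CPM with anti-IL-33. Replicates 6 and 4, at 56.9 and 19.4 CPM, also exceeded every anti-IL-33 mouse, and the other 4 anti-IL-4Rα mice were below 2 CPM. Alas2, the first enzyme of heme synthesis in red cells, was at 3056 CPM in replicate 2 and 452 CPM in replicate 6, against at most 135 CPM with anti-IL-33. The list's median was 0.67 without replicate 2 and 0.19 without the 5 steep libraries, which include replicates 2 and 6. The skeletal muscle myosin Myh1 was at 48.8 CPM in anti-IL-4Rα replicate 4, the mouse with high squamous keratins, while the median of that group was 0.0975 CPM. The part of this RNA in the other results was not tested.

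The gene with the lowest unadjusted p was Psca, a small glycosylphosphatidylinositol-anchored surface protein (chr15:74714839-74717065, GRCm38.p6). It was at 0.0489 to 0.521 CPM (median 0.0858) in the anti-IL-33 mice, 13 counts over all 6, and at 5.66 to 43.1 CPM (median 13.4) in the anti-IL-4Rα mice, 1475 counts over all 7, so that no mouse of one group overlapped the other. The log2 fold change was 6.95 (95% interval 3.93 to 9.98, unadjusted p 3.6e-05, edgeR adjusted p 0.24). Lack of overlap in this direction was seen for 2 of 15979 genes (0.0125%), the other being Adat2, a tRNA deaminase subunit, at 2.61 ± 0.55 CPM (SD, n = 6) with anti-IL-33 and 3.67 ± 0.39 CPM (SD, n = 7) with anti-IL-4Rα, and in the opposite direction for 0 genes. Adat2 is named because of that count, after its values were seen.

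Psca was either near 0 or well above it in the other groups as well. It was under 1 CPM in 5 of 7 isotype mice, in 2 of 7 mice at 19 weeks, in 2 of 6 at 11 weeks, in 1 of 5 with both antibodies and in 0 of 5 saline mice. Over all 43 mice, 16 were under 1 CPM, none above 0.52, and the other 27 were at 2.80 CPM or more. The isotype mice and the HDM mice without antibody thus held both states. The labels give neither litter nor cage, so a difference by antibody and one that came with the mice assigned to each group cannot be told apart for Psca. Psca passed with the 13 libraries fitted alone (edgeR adjusted p 0.000598) and in DESeq2 (adjusted p 0.000198), and did not in the weighted limma fit (adjusted p 0.0565). Ly6k, of the same Ly6 family and also on chromosome 15, had 2.22 to 7.75 CPM (median 4.58) and 6.38 to 27.5 CPM (median 12.4) (log2 fold change 1.62, SE 0.40, edgeR adjusted p 0.769).

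**Figure D4:**
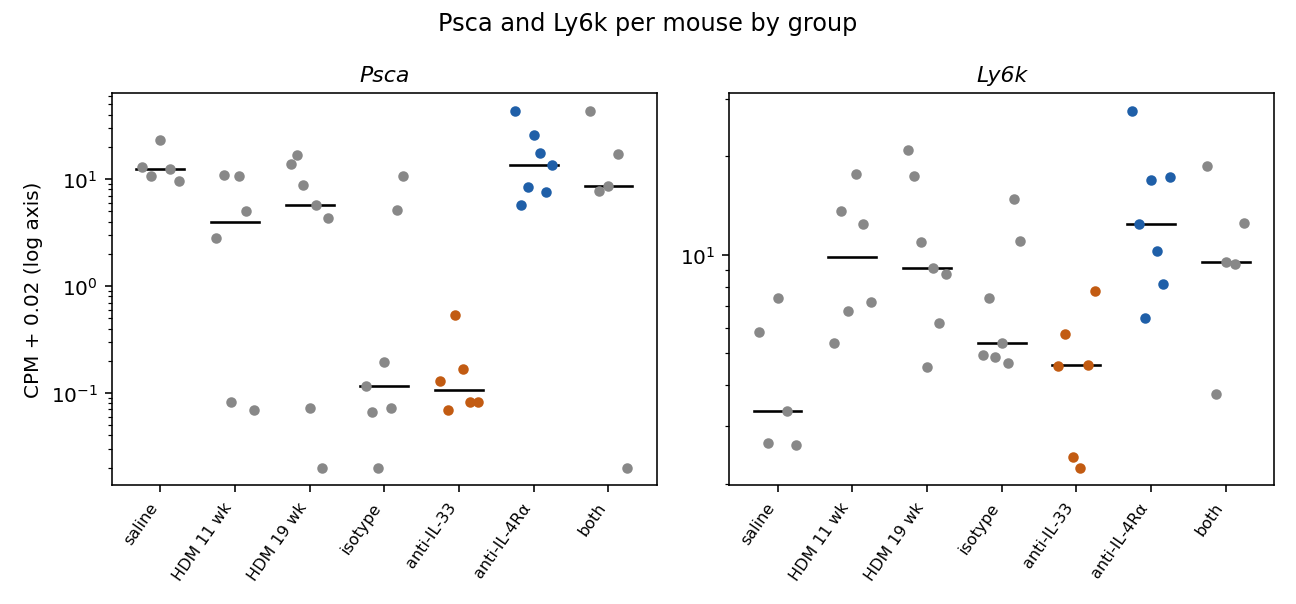
Level of Psca and Ly6k in each mouse (points, CPM + 0.02 on a log axis) by group (x axis), with a line at the group's median; anti-IL-33 is orange, anti-IL-4Rα blue and the other 5 groups grey. Psca values split into a low and a high set, with all 6 anti-IL-33 mice low and all 7 anti-IL-4Rα mice high, while Ly6k values show no such gap.

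The remaining genes with the lowest unadjusted p did not pass in edgeR. On the higher side they were Shox2, Add2, Mid1, Mgam and 4 erythroid genes, Slc4a1, Alas2, Hbb-b1 and Hbb-bt, whose log2 fold changes of 2.69 to 3.92 were 0.41 to 1.08 without anti-IL-4Rα replicate 2. Mid1, a microtubule-associated ubiquitin ligase, had 11.6 to 29 CPM (median 14) with anti-IL-33 and 13.6 to 84.4 CPM (median 45.6) with anti-IL-4Rα, and stood at 1.53 (SE 0.45) in edgeR and at 2.09 in the weighted limma fit (adjusted p 0.00345). The 3 steep anti-IL-4Rα libraries had 13.6 to 28.8 CPM, within the anti-IL-33 range, and the other 4 had 45.6 to 84.4 CPM. The weighted fit gave those 3 libraries weights of 0.083 to 0.318. Mgam, an alpha-glucosidase, had 1.23 to 5.34 CPM (median 2.31) and 2.67 to 14.7 CPM (median 7.69) (log2 fold change 1.37). It was at 2.67 to 4.39 CPM in the 3 steep anti-IL-4Rα libraries and at 7.69 to 14.7 CPM in the other 4. Add2 was at 8.41 CPM in anti-IL-4Rα replicate 2 and 2.01 CPM in replicate 6, the mice with the most Slc4a1, and at most 0.935 CPM in the rest of that group. On the lower side they were Abca17, Cyp26b1, Cyp1a1, Abhd1, Ccr3, Chst4, Prss30, Tmem212, Xkrx and Acoxl. Xkrx was at 101 CPM in anti-IL-33 replicate 4 and at 1.17 to 4.06 CPM in the other mice of that group.

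Cyp26b1, which degrades retinoic acid, had 5.38 to 256 CPM (median 44.7) with anti-IL-33 and 4.02 to 20.7 CPM (median 6.78) with anti-IL-4Rα, beside medians of 67.1 CPM with saline and 12.5 CPM with isotype (log2 fold change -3.12, SE 0.68, edgeR adjusted p 0.24). Cyp1a1, a P450 enzyme induced through the aryl hydrocarbon receptor, had 0.074 to 9.9 CPM (median 1.39) and 0.133 to 0.634 CPM (median 0.439) (log2 fold change -3.19, SE 0.73). The lower anti-IL-33 mice overlapped the anti-IL-4Rα mice in both genes. Abca17, a lipid transporter, stood at -1.67 (SE 0.36), at levels of at most 2.19 CPM. DESeq2 called these 3 genes lower, with adjusted p of 0.0487 for Abca17, 0.00434 for Cyp26b1 and 0.0155 for Cyp1a1.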

How the data were processed

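The deposited table holds expected counts, estimated read numbers per NCBI Gene ID, made by the authors by a counting program, annotation and strand setting not given in the sources used here; the genome build was mm10, per the submitters' processing notes. Per the labels' protocols, stranded poly(A) libraries were made from 500 ng of RNA and read in single reads of 33 cycles. Of 24475 genes, 24375 had a RefSeq symbol (GRCm38.p6). Expected counts were rounded, filtered with filterByExpr and scaled with TMM, and all 43 libraries were fitted with a mean per group in edgeR 4.0.16 (R 4.3.3, robust quasi-likelihood, 36 residual degrees of freedom, 2-sided, Benjamini-Hochberg over 15979 genes). The fit was tested on simulated data. Genes named are the 10 per direction with the lowest unadjusted p and at least 1 CPM in a group, since under 5 passed, a fixed set, up to 4 members per list and list members as examples. Members and lists were chosen with earlier results of these data known. Alternatives were DESeq2 1.42.0, limma 3.58.1 (voom with sample weights), other scalings and filters, blocks, covariates, and leaving out libraries. Same-numbered replicates correlated from -0.60 to 0.48, so the numbers were not taken as pairs.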

Additional observations from a re-analysis of the deposited data

Results flagged for a closer look

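In 17 of 162 sets of values (a gene or a library measure in 1 group), the highest or lowest mouse stood far from the others by Dixon's ratio, the gap to the nearest mouse divided by the range of the group's log2 CPM, or of the total count. Chance gives such a gap in about 1 of 20 sets. Of the 17 sets, 12 were of anti-IL-4Rα mice and 5 of anti-IL-33 mice.

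Anti-IL-4Rα replicate 2, a library of steep GC slope, was the highest of its group for Scgb1a1 (ratio 0.775), Mcpt4 (0.6701), Ccl17 (0.657), Jchain (0.6481) and Upk3b (0.7222) and the lowest for the collagens Col3a1 (0.7561) and Col5a2 (0.7225). Anti-IL-4Rα replicate 4 was the highest for Myh1 (0.7828), Krt13 (0.7391) and Krt4 (0.6536) and the lowest for Clca1 (0.6246). Replicate 8 had the highest total count of that group (0.6969).

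Among anti-IL-33 mice, replicate 4 was the highest for Xkrx (0.7255) and S100a8 (0.6702), replicate 5 the lowest for Il13ra2 (0.7206) and Ccl11 (0.6319), and replicate 3 the lowest for Add2 (0.69).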

How the results depend on the processing

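The counts of 0 genes higher and 0 lower became 1 and 3 with DESeq2, 331 and 400 with limma voom and sample weights, 1 and 0 with only the 13 libraries, and 1 and 0 with the replicate block over the 12 libraries with shared numbers; the cause was not tested. In the fit of the 13 libraries and in the block the gene was Psca. Leaving out 1 library gave 0 to 0 genes higher and 0 to 1 lower, the 1 being Abca17 without anti-IL-33 replicate 7. The other scalings, filters, covariates and blocks gave 0 in both directions. With the replicate numbers as a block no anti-IL-4Rα mouse matched best with its own number.

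The difference in GC slope ran from -0.14 to 0.18 when each library was left out. Other log2 fold changes that changed sign under leave-one-out ran from -0.19 to 1.04 for Ccl24, -0.27 to 0.0027 for Chil3, -0.091 to 0.48 for Fcer2a, -0.89 to 0.44 for Foxj1, -0.28 to 0.28 for Il13ra2, -0.71 to 6.64 for Krt13, -0.59 to 0.22 for Il4ra, -1.96 to 0.64 for Mcpt1, -0.31 to 0.22 for Muc5b, -1.60 to 6.94 for Myh1, -0.18 to 0.32 for Retnla, -0.23 to 0.17 for Sftpc and -1.01 to 0.95 for S100a8. With limma voom the sign changed for Alas2 (-0.45), Hbb-b1 (-0.50), Hbb-bt (-0.92), Slc4a1 (-0.20), Il4ra (0.084), Jchain (0.10) and S100a8 (0.48), and without the 5 steep libraries for Alas2 (-0.25), Hbb-b1 (-0.25), Hbb-bt (-0.75) and S100a8 (1.35). With the replicate block it changed for Il13ra2 (-0.077 over all libraries, -0.016 over 12, -0.31 with GC slope), Retnla (-0.073, and -0.078 with GC slope) and S100a8 (0.57 over 12). With the library number as covariate Fcer2a was at -0.070, Retnla at -0.070, Prg2 at 0.062 and Sftpc at 0.14. With the GC slope as covariate Il13ra2 was at -0.091, and with DESeq2 Myh1 was at -1.52 and Krt13 at -0.67. The cause was not tested. Precision was limited by the spread between mice, with a median SE of 0.32 on the log2 scale.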

Other observations

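Mesothelial genes, which mark the lining of the lung surface, had a median log2 fold change of -0.38 over 8 members, none of them positive, and the median ran from -0.54 without anti-IL-33 replicate 7 to -0.11 without anti-IL-33 replicate 2. Upk3b, a uroplakin of mesothelium, had 13.3 to 74.6 CPM (median 45.3) with anti-IL-33 and 15.5 to 47.2 CPM (median 18.7) with anti-IL-4Rα (log2 fold change -0.99, SE 0.39, edgeR adjusted p 1), and the ranges overlapped. Genes of the unfolded protein response differed little: 10 of 12 were positive, the median was 0.11, and all 12 had 95% intervals within 2-fold. The same interval held for 13 of 14 cell cycle genes (median 0.04).

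Mitochondrially encoded genes had a median of 0.22 over 13 members with all libraries, and of 1.54 without the 5 libraries of steep GC slope, where all 13 were higher with anti-IL-4Rα at an unadjusted p under 0.05, as were 4.85% of all genes in that fit. That fit compares 4 libraries with 4. The 13 genes share each library's mitochondrial part, so they are not 13 separate results. With all 5 kept, leaving out 1 library moved the median from -0.25 without anti-IL-4Rα replicate 5 to 0.83 without anti-IL-33 replicate 4. The mitochondrial share of counts ran from 2.61% to 12.1% with anti-IL-4Rα and from 1.58% to 10.3% with anti-IL-33 (exact 2-sided permutation p 0.770 over all libraries of both groups). Without the 5 steep libraries it ran from 2.61% to 12.1% and from 1.58% to 4.27%. Nuclear genes of the respiratory chain had medians of -0.08 and -0.14 in the same 2 fits, and the first ran from -0.44 without anti-IL-4Rα replicate 2 to 0.35 without anti-IL-33 replicate 4.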
